A study of Mus musculus with 10 samples.

Results

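RNA polymerase III (Pol III) sites bound by POLR3C were compared between embryonic stem (ES) cells of the mouse and its embryonic fibroblasts (MEFs) in primary culture, as mapped by chromatin immunoprecipitation sequencing (ChIP-seq). Members were all autosomal peaks of the POLR3C list of ES cells and of the POLR3C list of MEFs. Peaks that shared at least 1 bp were taken as 1 paired locus, and a peak with no partner as an unpaired locus. This gave 340 loci, beside 389 loci when the peaks of all 6 Pol III lists of the series are merged over all chromosomes. The ES-E14TG2a cells were grown on gelatin with serum and LIF, and the MEFs were isolated in-house from E12.5 embryos, grown with serum and no LIF, and passaged 3 to 5 times. Neither group carried an engineered allele or received an agent, per the labels, and the sources used here do not name the strain of the MEFs. The same in-house antibody to POLR3C was used on both, on cells fixed at 80% confluence, with 1 library per cell type. No replicate error exists, so no test was run, and every difference below is a difference between 2 lists. The labelled cell types could not be checked against marker genes, because the lists carry no gene names and no annotation of their genome build was at hand.

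Pol III makes transfer RNAs, 5S ribosomal RNA and a set of other short non-coding RNAs. POLR3C belongs, with POLR3F and either POLR3G or POLR3GL, to a subcomplex that sits on the rim of the enzyme and takes part in opening the promoter at initiation. Because POLR3C is part of the enzyme with either paralog, its binding stands for Pol III, whichever paralog is present. Whether each listed peak is a site of Pol III was not tested. Most transfer RNA genes carry their promoter inside the gene, and in mouse many lie in clusters. No locus was assigned to a gene here, and loci are named by position on mm9 and by their neighbours.

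On the autosomes the ES list had 311 peaks and the MEF list 274. All ES peaks were 214 bp wide and all MEF peaks 224 bp. In ES cells the deposited score ran from 260 to 3069 with a median of 1586, and in MEFs it ran from 40 to 319 with a median of 215. The scale of the score is not stated and differs between the lists, so each score was turned into a percentile rank within its own list, where 100 stands for the highest score. The score is not finely divided in ES cells, where 308 of 311 scores were whole multiples of 13 and 245 peaks shared their score with another peak.

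Around and above the median, the same relative change in score is worth more rank in MEFs than in ES cells. A score 10% above the median lay 6.75 points higher in the ES list and 19.2 points higher in the MEF list. In MEFs 87 of 274 peaks (31.8%) scored within 10% of the median, against 41 of 311 (13.2%) in ES cells. The highest score was 1.48 times the median in MEFs and 1.94 times in ES cells. Rank differences in the upper part of the MEF list therefore rest on small differences in score. Ranks are also relative, so that loci ranked higher in 1 list push the others down.

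**Figure D1:**
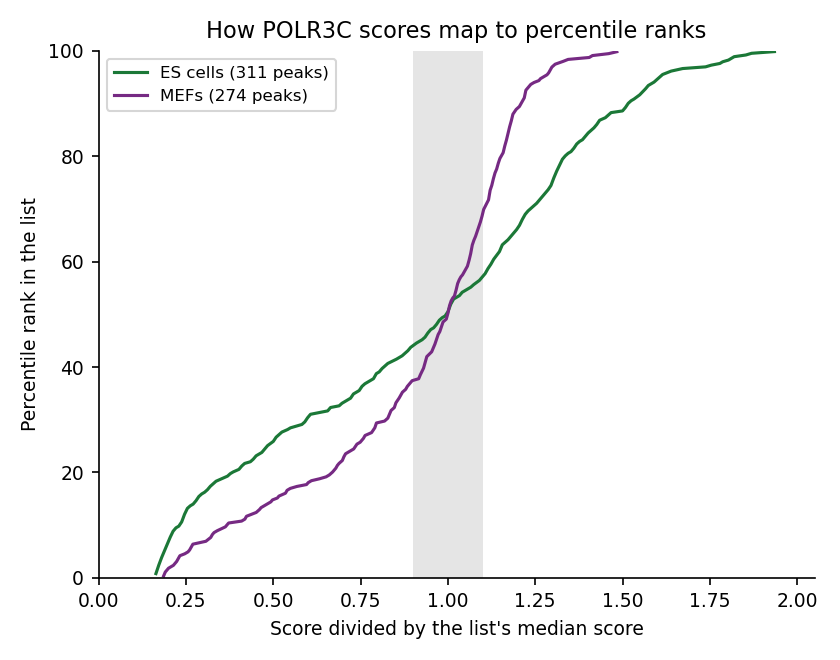
Percentile rank of each autosomal POLR3C peak (vertical axis) against its deposited score divided by the median score of its list (horizontal axis), for 311 ES cell peaks (green) and 274 MEF peaks (purple). The grey band marks scores within 10% of the median, where the MEF curve is the steeper and holds 31.8% of its peaks, against 13.2% in ES cells.

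Pairing joined 245 loci, all of them 1 peak with 1 peak. They made up 78.8% of the ES peaks (exact Clopper-Pearson 95% interval 73.8 to 83.2%) and 89.4% of the MEF peaks (85.2 to 92.8%), with intervals that cover counting error over peaks only. Paired peaks lay almost on top of each other. Their centres were a median of 10 bp apart, 124 of the 245 lay within 10 bp, 192 within 50 bp, and 5 were more than 100 bp apart. The smallest overlap that made a pair was 28 bp, and the smallest gap that left peaks unpaired was 76 bp. A further 66 loci were called in ES cells without a MEF partner, and 29 in MEFs without an ES partner.

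Ranks at paired loci were related across the cell types (Spearman rho = 0.65 over 245 loci, which share their 2 libraries and are not replicates). The median locus ranked 7.47 points higher in ES cells, and the median absolute difference was 15.7 points. Part of this offset in favour of ES cells comes with the unpaired peaks, 66 in ES cells and 29 in MEFs. Most of them rank low and lift the paired peaks of their own list above them. With ranks taken among the 245 paired loci alone, the median difference was 3.27 points, 134 loci ranked higher in ES cells and 109 in MEFs. A difference of at most 10 points was seen at 82 loci (33.5%), and of more than 50 points at 7 loci, of which 6 ranked higher in MEFs.

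The loci at the head of the lists were partly shared. Of the 31 paired loci at or above the 90th percentile in ES cells, 9 were at or above it in MEFs and 1 was below the MEF median. Of the 27 paired loci at or above the 90th percentile in MEFs, 4 were below the ES median. The highest score of both lists lay at chr11:106874103-106874340, with 3069 in ES cells and 319 in MEFs. It was followed, by mean percentile, by chr14:51709099-51709325 (2939 in ES cells, 314 in MEFs) and chr7:127978905-127979128 (2821 and 304). These 3 sites ranked at 97.6 or above in both lists, and POLR3GL ranked at 90.3 or above in both cell types there. The next places were taken by chr13:22114187-22114412 (2600 and 278) and chr13:23558877-23559138 (2509 and 286), so that the strongest shared sites were spread over 4 chromosomes.

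**Figure D2:**
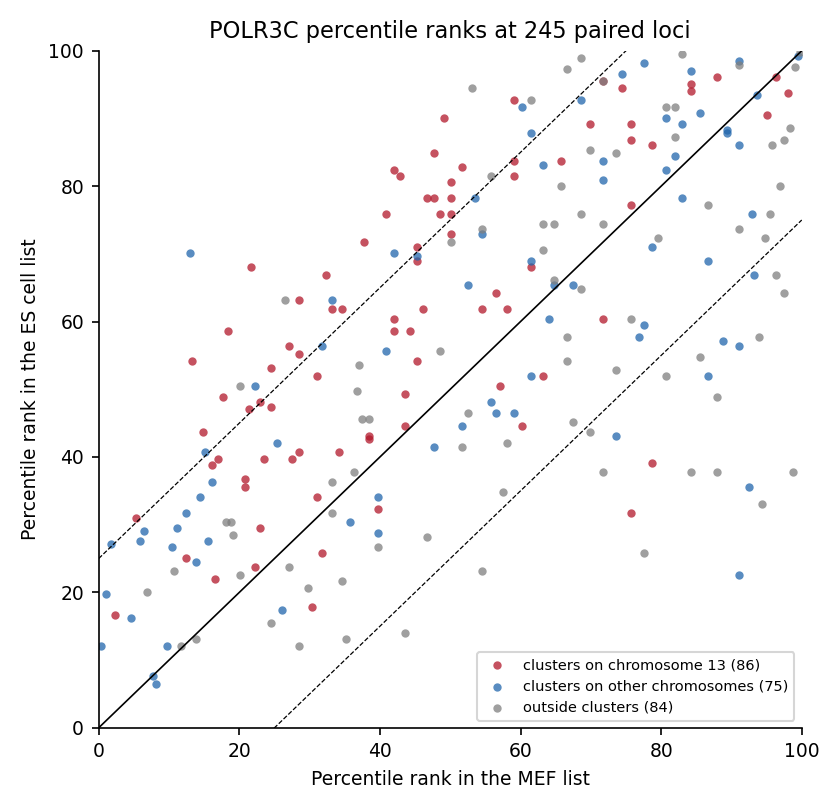
Percentile rank of the 245 paired POLR3C loci in the MEF list (horizontal axis) and in the ES cell list (vertical axis), coloured by neighbourhood. The solid line marks equal rank and the dashed lines a difference of 25 points. The 86 loci in clusters on chromosome 13 (red) lie mostly above the solid line, and the loci far below it are mostly grey points outside clusters.

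A difference of 25 points was taken as the size from which a locus is described as displaced. In ES cells 45 of 245 paired loci (18.4%) ranked at least 25 points higher, and in MEFs 24 of 245 (9.8%) did. The values nearest to the threshold were 25.1 and 24.8 points on the ES side, and -26.2 and -22.6 points on the MEF side. The ratio of 45 to 24 depends on the length of the lists. With the ES list cut by score to the length of the MEF list it became 25 to 31, and with ranks among paired loci alone it was 32 to 32. Which loci were displaced, and where they lie, is therefore described for each side separately, and no excess of 1 side is drawn from these counts.

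The displaced loci of the 2 sides lay in different neighbourhoods. A cluster is here a run of at least 5 POLR3C loci, from either list, with gaps of at most 200 kb. Of the 45 loci higher in ES cells, 38 (84.4%) lay in clusters and 30 (66.7%) on chromosome 13, beside 161 (65.7%) and 86 (35.1%) of all 245 paired loci. Of the 24 loci higher in MEFs, 9 (37.5%) lay in clusters and 2 (8.33%) on chromosome 13. The 2 traits overlap, since all 86 paired loci of chromosome 13 lay in clusters. Off chromosome 13, clusters held 8 of 15 loci higher in ES cells (53.3%) and 7 of 22 higher in MEFs (31.8%). Among all 159 paired loci there it was 75 (47.2%). The median rank of the 45 was 70.1 in ES cells and 37.8 in MEFs, and that of the 24 was 41.1 in ES cells and 87.3 in MEFs.

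Chromosome 13 held 96 of the 340 loci, and all of its 86 paired loci lay in 3 clusters. Their median rank was 61.2 in ES cells and 43.6 in MEFs, and 74 of 86 ranked higher in ES cells, with a median difference of 17.4 points. For the 159 paired loci on the other autosomes the median ranks were 56.4 and 63.1, and 83 ranked higher in ES cells and 76 in MEFs, with a median difference of 0.653 points. Of these 159, 15 were displaced towards ES cells and 22 towards MEFs, a balance that turned to 29 and 13 when chromosome 13 was left out and the other loci were ranked anew. A lean of the other autosomes towards either cell type is therefore not drawn from these ranks. The 3 clusters leaned the same way. The first, chr13:21252621-21418694, had 20 of 22 paired loci higher in ES cells and a median difference of 23.1 points. In the second, chr13:21802745-22142672, 27 of 31 were higher in ES cells, with a median of 16.2 points. In the third, chr13:23362220-23622399, 27 of 33 were higher in ES cells, with a median of 15.7 points. With ranks among paired loci alone, 63 of the 86 still ranked higher in ES cells and 22 in MEFs.

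Clusters on other chromosomes ran in both directions. At chr6:128710032-128793420 all 9 paired loci ranked higher in ES cells, by 12.1 to 30.0 points with a median of 24.7. At chr19:12076647-12086231 all 5 ranked higher in MEFs, with differences from -57.0 to -5.38 points and a median of -17.0. Within the cluster at chr3:96125868-96305554 the 14 paired loci covered the whole range of the data set, from -68.6 to 57.1 points. Those at chr1:172963955-173041676 ran from -34.7 to 31.4 points over 7 loci, so that a cluster did not always hold loci displaced the same way. The 3 clusters of chromosome 11 had medians of 2.06, 2.52 and 3.32 points. The first cluster of chromosome 6, chr6:47600748-47929190, had 4 of 7 paired loci higher in ES cells and a median of 11.7 points. At chr14:51683443-51710427, 3 of 6 ranked higher in ES cells, with a median of 9.71 points. At chr17:23670950-23687337, 3 of 7 did, with a median of -1.63 points. Outside clusters, 39 of 84 paired loci ranked higher in ES cells and 45 in MEFs, with a median of -2.38 points.

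**Figure D3:**
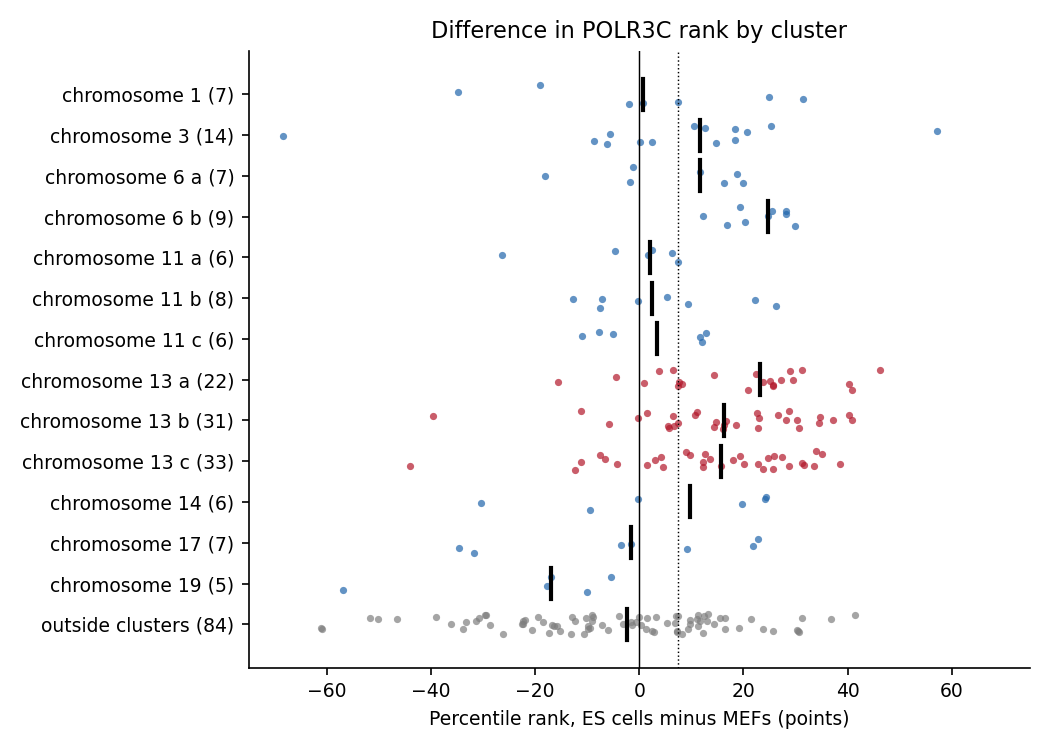
Difference in POLR3C percentile rank, ES cells minus MEFs, for each paired locus (points), by cluster and for the 84 loci outside clusters. Letters order the clusters of 1 chromosome by position, numbers in brackets give the paired loci, black bars are medians, and the dotted line is the median of all paired loci at 7.47 points. The clusters on chromosome 13 (red) and the second cluster on chromosome 6 lie to the right, and the cluster on chromosome 19 to the left.

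By whole chromosome, those with at least 8 paired loci fell into 3 sets. Chromosomes 13 and 6 ranked higher in ES cells, chromosome 6 with a median of 18.7 points and 15 of 19 loci. Chromosomes 7 and 10 ranked higher in MEFs, with medians of -14.6 points (8 of 10 loci) and -14.1 points (7 of 10 loci). The others were mixed. Chromosome 3 had a median of 7.27 points over 23 loci, chromosome 1 of 1.69 over 12, chromosome 14 of 0.379 over 11, chromosome 17 of -2.62 over 10 and chromosome 11 of -4.73 over 27. Size and, for some, sign depend on the ranking. With ranks among paired loci alone the median of chromosome 6 was 10.0 points and that of chromosome 3 was 0.408, and with the ES list cut to the length of the MEF list chromosome 3 had 0.365. With ranks among paired loci alone those of chromosomes 1 and 14 were -2.65 and -0.408, and with chromosome 13 left out those of chromosomes 11 and 17 were 2.17 and 6.60. Chromosomes 7 and 10 kept their sign, at -7.55 and -4.14 points with chromosome 13 left out and -20.9 and -22.2 points with ranks among paired loci alone. On chromosome 19, which had 7 paired loci and so fell under that minimum, all 7 ranked higher in MEFs.

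Loci close to each other differed in a similar way more often than distant ones. Of 58 consecutive paired loci at most 2 kb apart, 40 (69.0%) lay on the same side of the overall median difference. The share was 44 of 65 (67.7%) for gaps over 2 and up to 10 kb, 22 of 40 (55.0%) for gaps over 10 and up to 200 kb, and 36 of 63 (57.1%) beyond 200 kb. Over all pairs that can be formed from the 245 loci it was 49.4%. The median gap between the differences of 2 neighbours grew from 12.2 points within 2 kb to 17.6 points beyond 200 kb, beside 19.7 points over all pairs. Consecutive loci share members, so these shares are descriptions. Chromosome 13 was not set apart in them. All of its 86 paired loci lay in clusters, with a median difference of 17.4 points against 7.47 over all paired loci. Closeness and location on chromosome 13 are therefore not told apart by these shares.

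The 12 loci displaced furthest towards MEFs lay on 7 chromosomes. First was chr3:96239461-96239718, which scored 702 in ES cells (percentile 22.5) and 262 in MEFs (91.1), a difference of -68.6 points. POLR3GL was called there in MEFs (score 46) and not in ES cells. The next paired locus, 7197 bp away, differed by -5.70 points.

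The second, chr3:19528280-19528512, scored 1105 in ES cells (33.1) and 271 in MEFs (94.3). POLR3GL moved with it, from a percentile of 8.44 in ES cells to 73.4 in MEFs, and the site lay in a Pol II peak of MEFs while the nearest Pol II peak of ES cells was 265757 bp away. Its neighbour 261 bp away differed the same way, by -30.8 points. The third, chr18:36961452-36961675, scored 1248 in ES cells (37.8) and 302 in MEFs (98.7), and the next POLR3C locus was 29516713 bp away. Pol II peaks of both cell types covered it, and POLR3GL (percentile 97.3) was called there in MEFs and not in ES cells. POLR3G was called there in MEFs (91.2). The autosomal POLR3G list of ES cells holds 3 peaks, none at the 340 loci, so its absence here is not read as a difference.

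On chromosome 19, chr19:12085492-12085719 scored 1183 in ES cells (35.5) and 263 in MEFs (92.5). At the same site POLR3GL ranked 37.4 in ES cells and 93.2 in MEFs, a difference of -55.7 points that nearly equals the -57.0 of POLR3C. With its next neighbour 1461830 bp away, chr19:3576223-3576448 scored 1248 (37.8) and 255 (88.0), with POLR3GL at 13.4 in ES cells and 77.0 in MEFs. At chr9:123438422-123438645 the scores were 793 (25.9) and 245 (77.6), both peaks had the same centre, and POLR3GL was called in MEFs alone. All 3 of these sites lay in Pol II peaks of both cell types.

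Chromosome 7 gave 3 of the 12. These were chr7:29157883-29158117 (1248 in ES cells, 252 in MEFs, -46.5 points), chr7:128062160-128062409 (1547 and 255, -39.1 points) and chr7:105963962-105964278 (1755 and 268, -36.3 points). POLR3GL ranked 30.1 to 41.6 points higher in MEFs at all 3. The remaining ones lay in clusters. They were chr13:23517451-23517727 (1040 and 243, -44.1 points), chr13:22032668-22032953 (1274 and 246, -39.6 points) and chr1:173033058-173033281 (1599 and 254, -34.7 points). The second of these stood against its neighbourhood, since the locus 292 bp away ranked 30.7 points higher in ES cells. At the third, POLR3GL ranked 22.5 in ES cells and 95.4 in MEFs.

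Of the 12 loci displaced furthest towards ES cells, 9 lay in the chromosome 13 clusters. The first, however, was chr3:96136552-96136775, with a score of 1963 in ES cells (percentile 70.1) and 99 in MEFs, a difference of 57.1 points. POLR3GL was called there in ES cells (score 34) and not in MEFs. It lies in the same cluster as the locus displaced furthest towards MEFs, and its nearest neighbour, 1641 bp off, was called by POLR3C in ES cells alone.

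In the first chromosome 13 cluster, chr13:21340952-21341175 scored 1924 in ES cells (68.0) and 148 in MEFs (21.7). POLR3GL ranked 27.6 points higher in ES cells there, and POLR3G was not called in MEFs. Further along, chr13:21345980-21346250 scored 2171 (82.3) and 202 (42.0), and chr13:21367724-21367947 scored 2405 and 214, 40.9 points apart. Each of these 3 had POLR3GL in both cell types with the higher rank in ES cells, by 15.9 to 30.4 points.

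The second chromosome 13 cluster gave 4 of the 12. Here chr13:22016694-22016918 scored 1651 in ES cells (54.2) and 100 in MEFs (13.3), and chr13:22011960-22012213 scored 1768 (58.7) and 131 (18.4). Neighbouring peaks 584 bp apart, chr13:21973787-21974073 (1833 and 170) and chr13:21974658-21974881 (2236 and 211), were displaced together, by 34.7 and 37.3 points. The third cluster gave chr13:23592758-23593016 (2158 and 205, 38.6 points) and chr13:23545276-23545514 (2067 and 201). Of the 11 sites of this set with POLR3GL in both cell types, the last was the 1 where POLR3GL went the other way, ranking 32.1 points higher in MEFs.

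Outside clusters, 2 loci completed the set. At chr12:72069990-72070290 the score was 2535 in ES cells (94.5) and 218 in MEFs (53.1), and POLR3GL ranked 35.5 points higher in ES cells. At chr9:78023047-78023270 it was 1833 (63.2) and 163 (26.5), with POLR3GL 25.9 points higher in ES cells. Both lay in or within 104 bp of Pol II peaks of both cell types, unlike the other 10, which had no Pol II peak within 1 kb in either cell type.

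Displacement of POLR3C was accompanied by displacement of POLR3GL, a paralog subunit mapped with its own antibody and in libraries that the choice of loci did not use. The POLR3GL scores of ES cells are coarse, from 15 to 60 with a median of 31 and 39 distinct values. There 30.7% of peaks scored within 10% of the median, against 16.7% in MEFs. A score 10% below the median lay 14.7 points lower in ES cells and 10.3 points lower in MEFs. Near the median, POLR3GL differences of this size therefore rest on small differences in score. POLR3GL was called in both cell types at 202 of the 245 paired loci, where its median difference was -2.35 points and 91 loci (45.0%) ranked higher in ES cells. Of the 45 loci with POLR3C displaced towards ES cells, 42 had POLR3GL in both, and 33 of them (78.6%) ranked higher in ES cells for POLR3GL, with a median of 15.7 points. Of the 24 displaced towards MEFs, 18 had POLR3GL in both, and 15 (83.3%) ranked higher in MEFs for it, with a median of -33.5 points. At the other 6 of these 24, POLR3GL was called in MEFs and not in ES cells, beside 22 such loci (8.98%) among all 245. Off chromosome 13 lay 22 of the 24, of which 17 had POLR3GL in both cell types. There 14 of the 17 (82.4%) ranked higher in MEFs for POLR3GL, with a median of -35.6 points. Among all 124 such paired loci off chromosome 13 the share was already 87 (70.2%), with a median of -9.63 points.

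Across the 202 loci the 2 differences were correlated, with Spearman rho = 0.58 and Pearson r = 0.61, given as a description over loci that share 4 libraries. The relation was present in each neighbourhood, with rho = 0.47 over 78 loci on chromosome 13, 0.52 over 124 on other chromosomes and 0.59 over 67 outside clusters. It was not uniform. Of the 15 loci displaced towards ES cells off chromosome 13, 13 had POLR3GL in both cell types, and 6 of these ranked higher in ES cells and 7 in MEFs, with a median of -0.401 points. At the chromosome 6 cluster where all 9 loci ranked higher in ES cells for POLR3C, POLR3GL had a median of -14.2 points over 7 loci. On chromosome 13 itself, 54 of 78 loci ranked higher in ES cells for POLR3GL, with a median of 9.41 points, against 37 of 124 with a median of -9.63 points on the other autosomes.

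**Figure D4:**
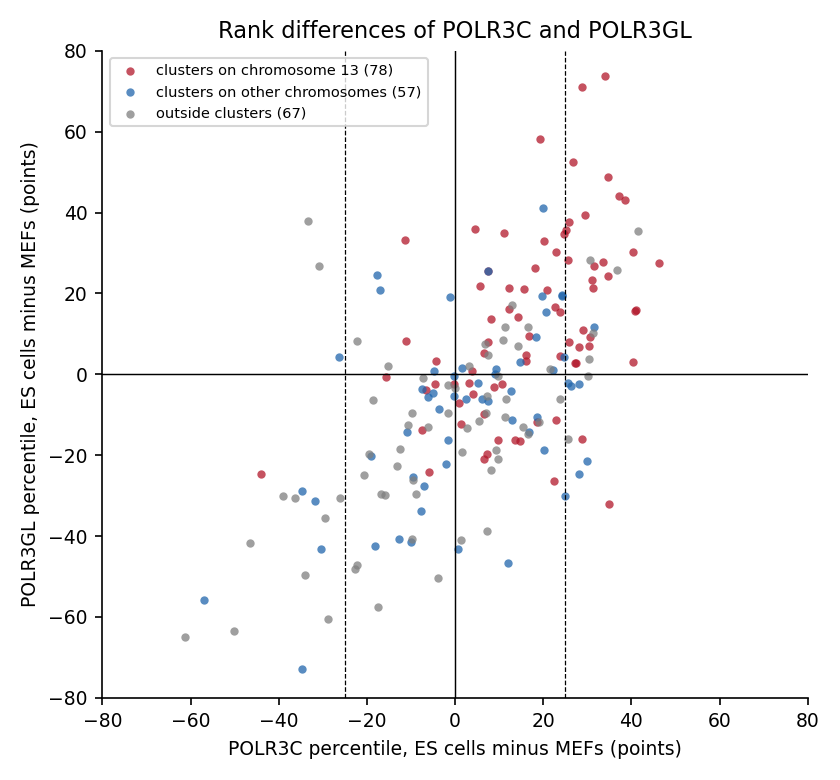
Difference in percentile rank, ES cells minus MEFs (points), for POLR3C (horizontal axis) and POLR3GL (vertical axis) at the 202 paired loci with a POLR3GL peak in both cell types, coloured by neighbourhood, with dashed lines at 25 points. Of 42 points beyond the right dashed line 33 lie above 0, and of 18 beyond the left one 15 lie below it.

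POLR3G was called at none of the 340 loci in ES cells, where its autosomal list holds 3 peaks against 176 in MEFs. With so short a list, no difference in POLR3G between the cell types is read from this. In MEFs it was called at 155 of the 245 paired loci (63.3%). POLR3G was called in MEFs at 22 of 24 loci displaced towards MEFs (91.7%) and at 21 of 45 displaced towards ES cells (46.7%). These shares go with the POLR3C rank in MEFs, whose median was 87.3 at the 24 and 37.8 at the 45, and at paired loci with and without POLR3G that median was 68.6 and 24.5.

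Pol II, whose peaks often lie near active Pol III genes, was found near the loci displaced towards MEFs at a larger share than near those displaced towards ES cells. Off chromosome 13 the shares lay closer to those of all paired loci there, and no difference between the sides is drawn from them. A Pol II peak lay within 1 kb in MEFs at 14 of these 24 loci (58.3%) and in ES cells at 13 (54.2%). For the 45 displaced towards ES cells the counts were 8 and 9, and over all 245 paired loci 95 (38.8%) and 103 (42.0%). Chromosome 13 held 30 of the 45, and 8 (9.30%) and 16 (18.6%) of its 86 paired loci had such a peak. Off chromosome 13 the counts in MEFs were 14 of 22 towards MEFs (63.6%, 40.7 to 82.8%) and 7 of 15 towards ES cells (46.7%, 21.3 to 73.4%). In ES cells they were 12 of 22 (54.5%) and 9 of 15 (60.0%). Over all 159 paired loci there, it was 87 (54.7%) in each cell type. The 74 paired loci with Pol II within 1 kb in both cell types had a median POLR3C difference of -1.52 points, and the 121 with Pol II in neither had 14.3 points. Cluster membership moves with this split, since 114 of the 121 and 22 of the 74 lay in clusters. Within clusters the medians were 14.5 points without Pol II in either and -4.89 points with Pol II in both. Chromosome 13 held 69 of those 114 clustered loci and 7 of those 22, so these medians do not set it apart. Outside clusters the medians were 9.66 points without Pol II in either (7 loci) and -0.332 points with Pol II in both (52 loci). The part of Pol II in the ranks of POLR3C was not tested.

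Unpaired loci were mostly weak calls. Below the 25th percentile of their own list lay 51 of the 66 unpaired ES loci (77.3%) and 20 of the 29 unpaired MEF loci (69.0%). Above the 50th percentile lay 8 and 5. Their median rank was 11.3 in ES cells and 9.67 in MEFs. POLR3GL was called in the same cells at 9 of the 66 (13.6%, 6.43 to 24.3%) and at 12 of the 29 (41.4%, 23.5 to 61.1%), beside 205 (83.7%) and 224 (91.4%) of the 245 paired loci. The share in ES cells was 27.3% of 33 unpaired loci with the ES list cut to the length of the MEF list, and 1.92% of 52 with peaks widened by 500 bp on each side, so that it depends on how pairs are made and on the weakest calls. A Pol II peak of the same cells lay within 1 kb at 24 of 66 (36.4%, 24.9 to 49.1%) and 11 of 29 (37.9%, 20.7 to 57.7%), beside the 103 and 95 of 245 given above.

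Most of the stronger unpaired loci had a POLR3C peak of the other cell type close by. A MEF peak lay within 500 bp of 8 of the 66 unpaired ES loci, and these 8 had a median rank of 63.7 and carried POLR3GL in ES cells at 7 sites. The 50 unpaired ES loci with no MEF peak within 10 kb had a median rank of 9.16, and none of them carried POLR3GL in either cell type. In MEFs, 8 of 29 had an ES peak within 500 bp, with a median rank of 45.2 and POLR3GL in MEFs at 7, and 18 had none within 10 kb, with a median of 6.39 and POLR3GL in MEFs at 4.

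**Figure D5:**
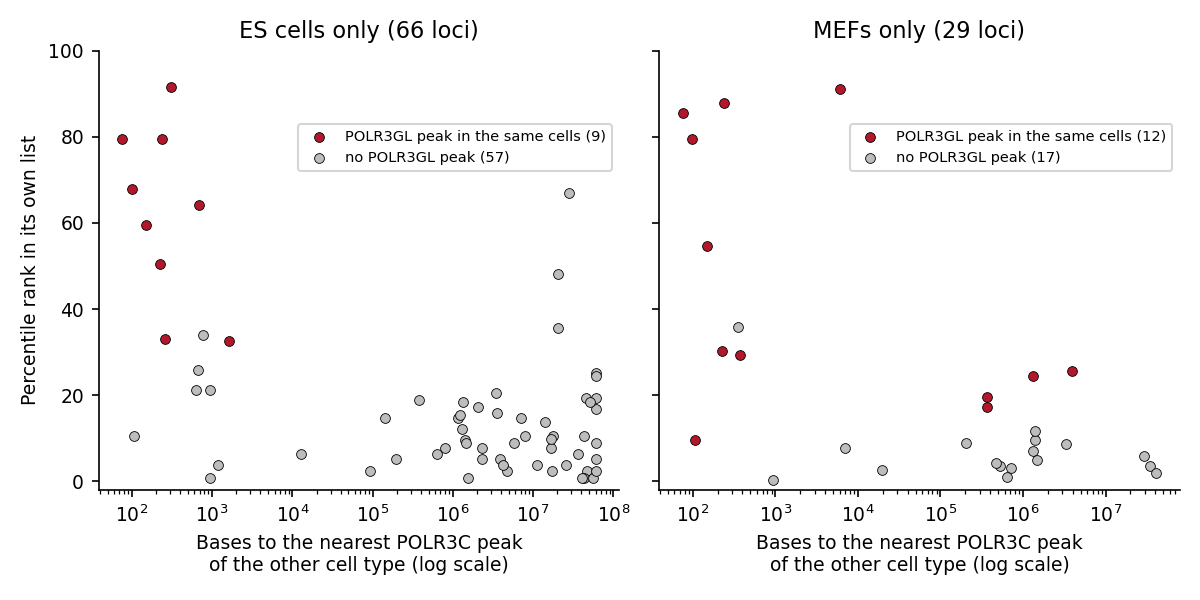
Percentile rank within its own list (vertical axis) of each unpaired POLR3C locus against the number of bases to the nearest POLR3C peak of the other cell type (horizontal axis, log scale), for 66 loci called in ES cells only (left) and 29 called in MEFs only (right). Red points carry a POLR3GL peak in the same cells, and in ES cells none of them lies beyond 10 kb.

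In 5 places an unpaired ES locus and an unpaired MEF locus lay side by side, 76 to 227 bp apart. The strongest was on chromosome 11, where ES cells were called at chr11:68850949-68851162 (score 2106, percentile 79.4) and MEFs at chr11:68851239-68851462 (253, 85.6). In the same cluster ES cells were called at chr11:68938038-68938251 (1924, 68.0) and MEFs at chr11:68937715-68937938 (247, 79.6). The remaining pair there joined chr11:68923865-68924078 in ES cells (1586, 50.5) to chr11:68924306-68924529 in MEFs (178, 30.3).

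On chromosome 8 the pair was chr8:97227881-97228094 in ES cells (1781, 59.5) and chr8:97227507-97227730 in MEFs (220, 54.6). These 4 places had POLR3GL peaks at both positions in both cell types. In ES cells POLR3GL scored higher at the position called by POLR3C in ES cells in 4 of 4 places, for example 34 against 29 at the first. In MEFs it scored higher at the position called in MEFs in 2 of 4, as at the second, with 70 against 57. The fifth place, on chromosome 12, was weak in both lists, with percentiles of 10.6 and 9.67.

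Among the other high unpaired ES loci, chr3:96305341-96305554 ranked highest (2457, 91.6), with a MEF peak 303 bp away and POLR3GL in both cell types. In the third chromosome 13 cluster, chr13:23592343-23592556 (2106, 79.4) and chr13:23591893-23592106 (1859, 64.1) lay next to the paired locus 38.6 points higher in ES cells, so that 3 successive positions were called in ES cells alone or ranked higher there. POLR3GL was called at both in both cell types, and it ranked 46.5 and 43.3 points higher in ES cells.

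A separate set of unpaired ES loci lay in Pol II peaks of MEFs, with no ES Pol II peak within 10 kb. It held 10 loci, and none carried POLR3GL in either cell type. No repeat annotation or list of problem regions of mm9 was used here, so whether these 10 are repeats where reads pile up by ambiguous mapping was not tested, and neither their scores nor their overlap with Pol II is read as Pol III binding. The strongest was chr9:35112820-35113033 (1911, 66.9), followed by chr2:98506831-98507044 (1534, 48.1) and chr2:98502805-98503018 (1183, 35.5), with the nearest MEF POLR3C peak at least 20365327 bp away from each. Of the 10, 5 belonged to a block of 7 unpaired ES loci at chr9:3015618-3035954, with scores of 273 to 767. Mouse chromosomes in this build begin with an unsequenced stretch that stands for the centromere, and the block lies just after it. Beside it, 12 paired loci met the same 2 conditions on Pol II.

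Unpaired MEF loci led with chr1:172974994-172975217 (262, percentile 91.1), where POLR3GL ranked 96.4 and POLR3G 87.8 in MEFs, and where neither POLR3C nor POLR3GL was called in ES cells. The nearest ES POLR3C peak was 6143 bp away, and that paired locus ranked 24.8 points higher in ES cells. Next came chr5:125889268-125889491 (255, 88.0), which had an ES POLR3C peak 241 bp away and POLR3GL in both cell types. Lower in the list, chr3:96304254-96304477 (189, 35.8) had no POLR3GL in either cell type, and chr13:23518893-23519116 (171, 29.4) had it in MEFs. With no ES peak within 1 Mb, chr11:102995606-102995829 (161, 25.7) and chr11:62559384-62559607 (157, 24.5) carried POLR3GL in MEFs at percentiles of 4.75 and 7.03.

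Unpaired loci were spread differently over the chromosomes from paired ones. Chromosome 13 held 86 of 245 paired loci (35.1%) but 7 of 66 unpaired ES loci (10.6%) and 3 of 29 unpaired MEF loci (10.3%). Chromosome 9 held 11 of the unpaired ES loci against 5 paired loci, but 7 of the 11 were the block at its start, whose mapping was not tested, and chromosomes 4 and 8 held 6 each against 3 paired loci each. Clusters held 22 of the 66 and 8 of the 29, and without that block 15 of 59 unpaired ES loci.

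How far the displacements exceed the resolution of the scores was examined with a margin of 10%. When the score in the higher-ranked cell type was lowered by 10% and that in the other raised by 10%, 9 loci still differed by at least 25 points, 4 towards ES cells and 5 towards MEFs. The 4 were chr3:96136552-96136775, chr13:21340952-21341175, chr13:22011960-22012213 and chr13:22016694-22016918, where the MEF scores were 99 to 148. The 5 were the first 5 of the list towards MEFs, on chromosomes 3, 18, 19 and 9. The size of the error between libraries is unknown, and the margin is a scale, not an estimate of it.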

How the data were processed

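ChIP-seq peak lists of POLR3C from ES-E14TG2a cells and primary MEFs were compared, 1 library each, with the lists of POLR3GL, POLR3G and Pol II as further readouts. Per the submitters' processing notes, CASAVA 1.8, Bowtie, SAMtools and HOMER were used with build mm9. The score of each peak is the authors' deposited value, with no stated scale, threshold or control, and the sources used here do not say how peaks were called on the samples. Read depth is unknown. The 2 input libraries were not analysed here.

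Starts were read as 0-based and are printed 1-based. Percentiles are 100 × (average rank - 0.5)/n over the autosomal peaks of a list. Gaps count the bases between peaks. POLR3GL and POLR3G were called at a locus at 1 bp of overlap, and Pol II within 1 kb. Shares have exact Clopper-Pearson 95% intervals. No test was run. Pairing and ranking were tested on simulated data with widely spaced peaks and untied scores, which do not cover close neighbours or ties.

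Named loci were the 12 with the largest difference on each side, the 10 highest unpaired loci of each list and the 5 with the highest mean percentile, with every cluster of at least 5 loci and every chromosome with at least 8 paired loci. Other loci and chromosomes named, the 10% margin and the neighbour shares were chosen after their values were seen. The members, lists and thresholds were chosen with earlier results of these data known. The gene and sequence tables at hand are for GRCm38, so that neither genes nor sequences were attached. The software was Python 3.11.15, pandas 2.3.3, scipy 1.17.1, numpy 2.4.6 and matplotlib 3.10.9.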

Additional observations from a re-analysis of the deposited data

Results flagged for a closer look

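The autosomal comparison leaves out 6 POLR3C peaks of ES cells on chromosome X, a signal in data that the comparison did not use, beside 1 POLR3C peak of MEFs there. The MEF peak overlapped 1 of the 6, at chrX:157203936-157204199, where the score was 1495 in ES cells and the percentiles over all chromosomes were 47.3 in ES cells and 48.9 in MEFs. The other 5 had no MEF partner, scored 286 to 481 and ranked from 3.94 to 17.4.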

How the results depend on the processing

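Of 162 values recomputed under another setting, 147 stayed within 1.5 times of a count, within the 95% interval of a share, within the binomial interval of a median or within 0.1 of a rho. These limits are wide. The medians of chromosomes 1, 11, 14 and 17 changed sign under some settings and still fell within their intervals. The displaced counts of 45 and 24 became 32 and 32 with ranks among paired loci alone, and are counted among the 147. Cutting the ES list to the length of the MEF list left 33 unpaired ES loci, 25 loci displaced towards ES cells, a median of 8.03 points in clusters and a POLR3GL share of 27.3% at unpaired ES loci. Leaving out chromosome 13 left 159 paired loci, with 29 and 13 displaced towards ES cells and MEFs, where the same 159 loci had 15 and 22 in the full ranking, so that their balance turned. Ranks among paired loci alone gave a median of 7.96 points in clusters. Widening peaks by 500 bp on each side lowered the POLR3GL share of unpaired ES loci to 1.92%, since neighbouring peaks are then paired, and leaves no unpaired locus with a neighbour within 500 bp by construction. A threshold of 15 points gave 85 and 41 displaced loci and one of 35 points 11 and 11. The 10% margin, chosen after seeing the data, gave 4 and 5. No locus held several peaks of 1 list, so the alternative that removes such loci changes nothing. No paired analysis was possible because each group has 1 library and no test was made. Depth is unknown, so an unpaired locus does not show that POLR3C is absent from the other cell type.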
